A study of Brassica oleracea var. capitata with 6 samples.

Results

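The most isoform-rich long non-coding RNA (lncRNA) loci of the cabbage leaf are described here. A locus is a group of assembled transcripts that share a number, so that MSTRG.5278.11 is transcript 11 of locus MSTRG.5278. All loci with 4 or more transcripts in the lncRNA table were taken, except those with a number of at least 80000 and under 85000. They were 157 of the 3061 loci in the table and held 919 of its 4459 transcripts, and 19 further loci with 4 or more transcripts were left out because of their number. Of the 157 loci, 50 had 4 transcripts, 40 had 5, 24 had 6, and 2 had 14, the most in the set. Just below the limit of 4 stood 111 loci with 3 transcripts.

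LncRNAs are transcripts without a recognised protein-coding frame, and many plant lncRNAs are spliced, polyadenylated and present at low levels. In an assembly, reads that overlap are joined into a locus, and alternative starts, ends and splice paths become separate transcripts of that locus. A change between genotypes can therefore lie in the locus as a whole, with all its transcripts moving together, or in the share that each transcript takes of the locus.

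The study set *nwgl* (non-wax glossy) cabbages, *Brassica oleracea* var. *capitata*, a glossy form with a dominant single-locus trait that was found in the inbred line G287, against wild-type plants. Leaves of both genotypes were collected at the harvesting stage from field-grown plants, and RNA-seq libraries were made from 3 biological replicates of each genotype. The labels name no transgene or treatment, and the line of the wild-type plants is not stated in the sources used here. Values are FPKM, which counts fragments relative to the length of a transcript and to the mapped fragments of its library.

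The following properties of the libraries bear on everything below. *Bol018504*, which encodes the alkane-forming enzyme CER1, had 5.20, 5.09 and 5.97 FPKM in the *nwgl* libraries, against 114, 142 and 44.0 FPKM in the wild-type libraries, so the genotype labels were separated by this gene. The 919 transcripts summed to between 349 and 361 FPKM in the *nwgl* libraries, against 252, 496 and 405 FPKM in wild-type replicates 1, 2 and 3. Wild-type replicate 3 had the fewest of these transcripts above 0, 601 of 919, against 674 to 711 in the other 5 libraries. FPKM values come without read counts, so the depth behind a single value is unknown.

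The loci were low in abundance. The mean sum over the transcripts of a locus ranged between 0.168 and 38.3 FPKM with a median of 1.23 FPKM, and 90 of the 157 loci reached 1 FPKM and 4 reached 10 FPKM. The median sum was 0.472 FPKM for loci with 3 transcripts, 0.343 FPKM for loci with 2 and 0.0849 FPKM for loci with 1. Per transcript the difference was smaller, with a median of 0.153 FPKM in these loci and 0.108 FPKM over all lncRNA transcripts. Of the 919 transcripts, 313 had a mean under 0.1 FPKM and were not tested singly, 512 were listed at 0 in at least 1 library, and 407 were above 0 in every library. In all *nwgl* libraries 85 transcripts were listed at 0, and in all wild-type libraries 81 were. The shares given below are shares of the transcripts listed in the lncRNA table, which does not hold every transcript of each locus. The highest transcript numbers add up to 1350 over the 157 loci, 431 of these numbers are not among the rows, and 64 loci have every number.

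The first question was whether the level of a whole locus differed between the genotypes. Summed FPKM of 5 of the 157 loci (3.18%) differed by the criteria of the fit, an adjusted p (limma, Benjamini-Hochberg) below 0.05 with a change by at least 1 on the log2 scale, and all 5 were higher in *nwgl* leaves. In whole leaves, more cells that hold an RNA and more of it per cell cannot be told apart. Among all 1629 lncRNA loci tested, 4.6% passed, 2.89% higher and 1.72% lower in *nwgl*, so these loci did not exceed the rest of the table in this count. The median log2 fold change was -0.08 over the 157 loci and 0.01 over all loci. At an unadjusted p under 0.05, 11 loci were higher and 11 lower, 14.0% in all, against 16.5% of all loci. The libraries of the genotypes did not overlap in 31 loci (19.7%), 17 higher and 14 lower in *nwgl*, against 21.2% of all loci.

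MSTRG.5278, with 7 transcripts, had the largest difference. Its sum was 11.6, 8.53 and 9.05 FPKM in the *nwgl* libraries, against 0, 0.00628 and 0 FPKM in the wild-type libraries. The locus was thus present in every *nwgl* library and at or near 0 in every wild-type library. The sum differed by 6.57 on the log2 scale (standard error, SE, 0.49, limma adjusted p = 5.92e-05). The size of such a fold against values near 0 depends on the pseudocount and other settings, between 3.41 and 9.68, whereas the call does not.

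MSTRG.85996, also with 7 transcripts, had sums of 4.71, 4.83 and 3.39 FPKM in *nwgl*, against 0, 0 and 0.0271 FPKM in wild-type. The difference was 5.33 on the log2 scale (SE 0.51, limma adjusted p = 0.000173), between 2.38 and 8.11 under the other settings. MSTRG.64296, with 4 transcripts, had sums of 4.04, 3.23 and 6.88 FPKM in *nwgl*, against 0.0283, 0.153 and 0.0189 FPKM in wild-type (log2 fold change 4.87, SE 0.56, adjusted p = 0.000547). In both loci the lowest *nwgl* library lay far above the highest wild-type library.

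MSTRG.79413, with 6 transcripts, had sums of 1.89, 3.27 and 1.73 FPKM in *nwgl* and was listed at 0 in all wild-type libraries, so that no fold is given (adjusted p = 0.000578). MSTRG.73820, with 7 transcripts, had sums of 2.61, 4.69 and 1.82 FPKM in *nwgl*, against 0.280, 0.0956 and 0.313 FPKM in wild-type. Its wild-type sums were the highest among the 5 loci in replicates 1 and 3. Its log2 fold change was 3.22 (SE 0.58, limma adjusted p = 0.00964), and the call was lost when *nwgl* replicate 1 or *nwgl* replicate 2 was left out, with an adjusted p of up to 0.0819. The other 4 loci kept their calls with each library left out in turn.

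**Figure D1:**
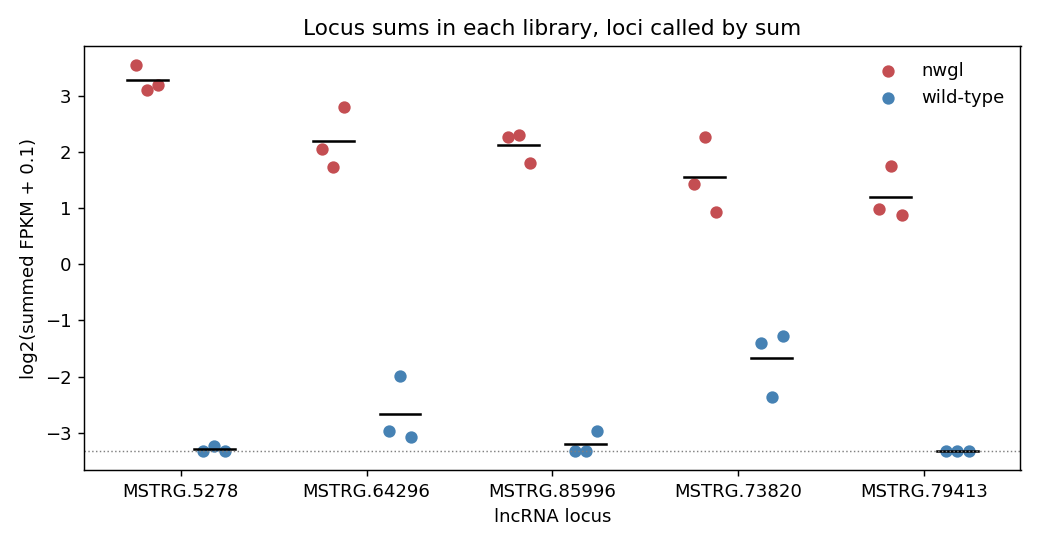
Summed FPKM of the 5 lncRNA loci whose sum differed, as log2(summed FPKM + 0.1), with a point for each library (*nwgl* in red to the left of wild-type in blue), a bar at the mean of these log2 values and a dotted line where a sum of 0 lies. In every locus the 3 *nwgl* libraries stand above the 3 wild-type libraries, and all 3 wild-type libraries of MSTRG.79413 lie at 0.

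No sum was called lower in *nwgl*. The locus with the smallest p among those lower in *nwgl*, MSTRG.49566, which was picked after the values were seen, had sums of 0.213, 0.655 and 0.531 FPKM in *nwgl*, against 1.21, 2.58 and 2.13 FPKM in wild-type. Its libraries did not overlap, but the log2 fold change of -1.91 (SE 0.57) had an adjusted p of 0.104 with limma. MSTRG.20718, picked in the same way, was listed at 0 in all *nwgl* libraries and had 0.130, 0.445 and 0.434 FPKM in the wild-type libraries (adjusted p = 0.141).

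The transcripts inside the 5 loci were examined next. Of the 919 transcripts 606 had a mean of at least 0.1 FPKM and were tested, and 10 (1.65%) were called, all of them higher in *nwgl*. Over all 2340 lncRNA transcripts tested, 2.78% were called, 1.92% higher in *nwgl*. At an unadjusted p under 0.05 the counts were 51 transcripts of these loci (8.42%) and 14.4% of all transcripts. Of the 10 called transcripts, 9 belonged to the 5 loci called by sum.

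In MSTRG.5278, transcripts 1, 7 and 11 were called, each listed at 0 in all wild-type libraries. MSTRG.5278.11 had 4.72, 0.701 and 3.98 FPKM in *nwgl* (adjusted p = 0.00812), and MSTRG.5278.1 had 1.21, 3.03 and 0.558 FPKM (adjusted p = 0.0135). The leading transcript was number 11 in *nwgl* replicates 1 and 3 and number 1 in *nwgl* replicate 2, while the sum of the locus stayed between 8.53 and 11.6 FPKM. The single transcripts thus varied more among the *nwgl* libraries than the locus did.

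In MSTRG.85996, transcripts 1, 2 and 3 were called. MSTRG.85996.2 had 1.57, 2.20 and 0.781 FPKM in *nwgl*, against 0, 0 and 0.0271 FPKM in wild-type (adjusted p = 0.00696). The share of MSTRG.85996.1 was nearly the same in the *nwgl* libraries, 24.6 ± 1.35% of the locus (SD, n = 3). Of its 7 transcripts, 5 were above 0 in all *nwgl* libraries and listed at 0 in all wild-type libraries.

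In MSTRG.64296 a single transcript was called, and it took most but not all of the locus in *nwgl*. MSTRG.64296.1 had 2.80, 2.21 and 6.57 FPKM in *nwgl*, against 0, 0.116 and 0.0119 FPKM in wild-type, a log2 fold change of 4.73 (SE 0.64, adjusted p = 0.00391). It took 77.8 ± 15.4% of the locus in *nwgl*. It was the one called transcript of the 10 that kept its call with each library left out in turn. MSTRG.85996.1 and MSTRG.85996.2 lost theirs without *nwgl* replicate 1 or 2 and MSTRG.5278.11 without *nwgl* replicate 1 or 3, and the other 6 kept theirs in at most 1 of the 6 fits, with limma adjusted p values of up to 0.222. With a pseudocount of 1, MSTRG.64296.1 and MSTRG.85996.1 alone remained called. In MSTRG.79413 one transcript of 6 was called, MSTRG.79413.2, with 0.503, 1.12 and 0.545 FPKM in *nwgl* and listed at 0 in wild-type (adjusted p = 0.0212).

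In MSTRG.73820 the transcript called was MSTRG.73820.7, with 0.873, 1.55 and 0.841 FPKM in *nwgl*, against 0.236, 0 and 0 FPKM in wild-type (log2 fold change 2.94, SE 0.66, adjusted p = 0.0470). The call was lost in 5 of 9 other settings, namely both other pseudocounts, quantile normalization, eBayes without trend and the replicate block, with the log2 fold change between 0.94 and 5.18 and an adjusted p of up to 0.114. It led in all 3 *nwgl* libraries and in wild-type replicate 1, and MSTRG.73820.5 led in wild-type replicates 2 and 3. MSTRG.73820.5 had 0.194, 0.410 and 0.296 FPKM in *nwgl*, against 0.0449, 0.0956 and 0.313 FPKM in wild-type, so its level overlapped between the genotypes (adjusted p = 0.627). Its share was 10.8 ± 4.79% in *nwgl* and 72.0 ± 48.5% in wild-type (SD, n = 3 each), a difference that was not called (adjusted p = 0.621).

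**Figure D2:**
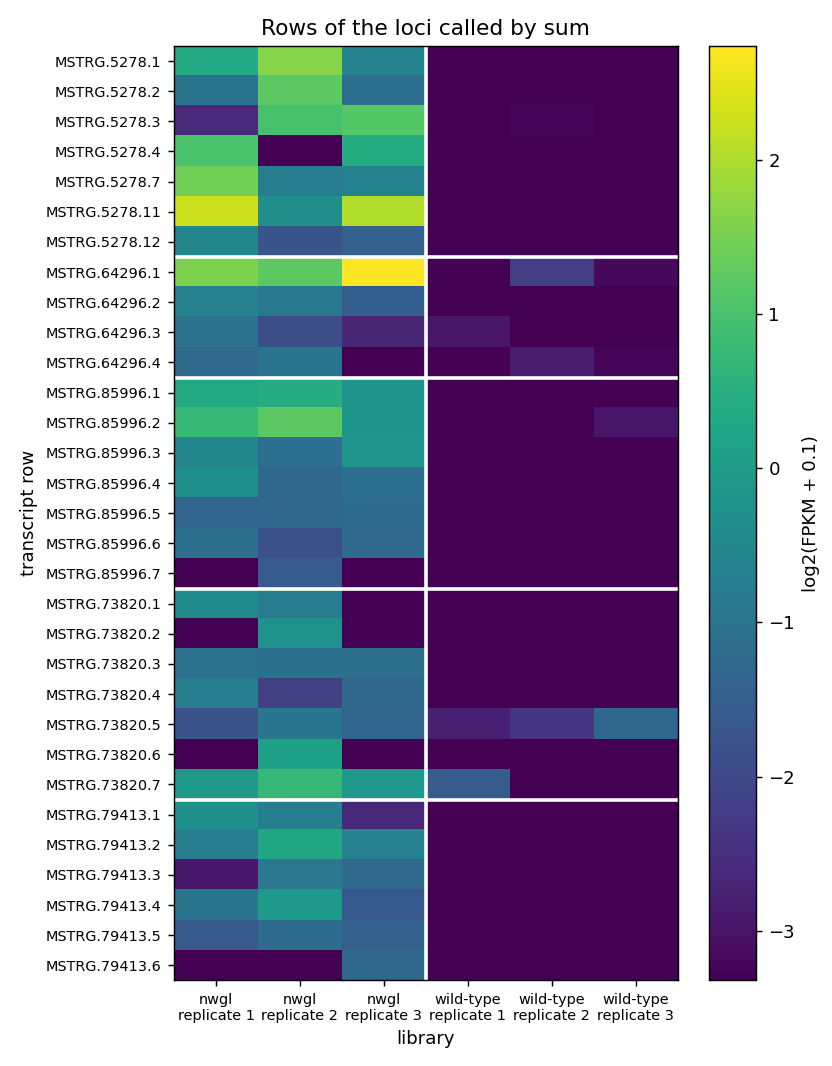
FPKM of each listed transcript of the 5 loci called by sum, as log2(FPKM + 0.1) in colour, with transcripts down the page and the 3 *nwgl* libraries to the left of the 3 wild-type libraries. Most cells are coloured above the floor in *nwgl* and lie on it in wild-type, and the brightest transcript of MSTRG.5278 changes between *nwgl* replicates.

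The tenth called transcript came from a locus whose sum did not differ. MSTRG.48804, with 4 transcripts, had sums of 5.55, 5.61 and 7.25 FPKM in *nwgl*, against 2.71, 8.80 and 10.3 FPKM in wild-type (log2 fold change -0.05, SE 0.58, adjusted p = 0.982). MSTRG.48804.2 had 0.812, 0.50 and 0.648 FPKM in *nwgl*, against 0.0682, 0 and 0 FPKM in wild-type, and the genotypes did not overlap (log2 fold change 2.64, SE 0.55, adjusted p = 0.0328). Its share was 10.8 ± 3.29% in *nwgl* and 0.838 ± 1.45% in wild-type (SD, n = 3 each, adjusted p of the share = 0.480). The call of MSTRG.48804.2 held in 1 of the 6 fits that left out a library, with an adjusted p of up to 0.194, and was lost with a pseudocount of 1 (log2 fold change 0.69, adjusted p = 0.137) and of 0.01 (log2 fold change 5.04, adjusted p = 0.0633). The main transcript, MSTRG.48804.1, led in all 6 libraries.

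Sums and shares were then separated over the whole set. A share can be computed in a library only where the locus sum is above 0, which held in all libraries for 138 of the 157 loci. In 3 of the 5 loci called by sum, MSTRG.5278, MSTRG.85996 and MSTRG.79413, at least 1 wild-type library was at 0, so no change of share could be measured in them. In the 138 loci, 832 transcript shares were tested and none was called at an adjusted p under 0.05 and a change of at least 10 percentage points, with 0.0683% called over all 1465 shares in the table. At an unadjusted p under 0.05 there were 42 (5.05%), against 7.65% of all shares, and the smallest adjusted p was 0.194. The diffSplice test of limma, which compares the fold change of a transcript with that of the other transcripts of its locus, called 2 of the 832. They were MSTRG.64296.1 and MSTRG.56258.9, and no diffSplice count over all transcripts is set beside them. MSTRG.64296.1 had an adjusted p of 0.0406 in diffSplice. Its mean share was 31.5 percentage points higher in *nwgl*, which the test of shares did not call. The sums of its locus were close to 0 in wild-type, so its wild-type shares rest on very low values.

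Large differences between mean shares were nevertheless common, but shares also differed widely between replicates of a genotype, as given below. The counts that follow have no counterpart over all shares of the table. The mean share differed by 10 percentage points or more in 269 of the 832 transcripts, in 113 of the 138 loci. It differed by 50 points or more in 6 transcripts. The largest was that of MSTRG.69529.5, picked by its size, which had 0.0263, 0.0532 and 0 FPKM in *nwgl*, against 0.259, 0.520 and 0.177 FPKM in wild-type. Its share was 12.6, 14.5 and 0% of the locus in *nwgl*, against 100, 55.0 and 100% in wild-type, and the genotypes did not overlap (adjusted p of the share = 0.227). The sum of MSTRG.69529 was only 0.293 ± 0.0786 FPKM in *nwgl* and 0.460 ± 0.422 FPKM in wild-type (SD, n = 3 each).

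MSTRG.56258.9, which diffSplice called, had 0.0222, 0 and 0 FPKM in *nwgl*, against 0.236, 0.721 and 0.237 FPKM in wild-type. It took 1.15 ± 1.99% of its locus in *nwgl* and 45.4 ± 19.8% in wild-type (SD, n = 3 each), with an adjusted p of 0.213 in the test of shares and 0.0492 in diffSplice. The libraries of the genotypes did not overlap in its level or in its share.

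**Figure D3:**
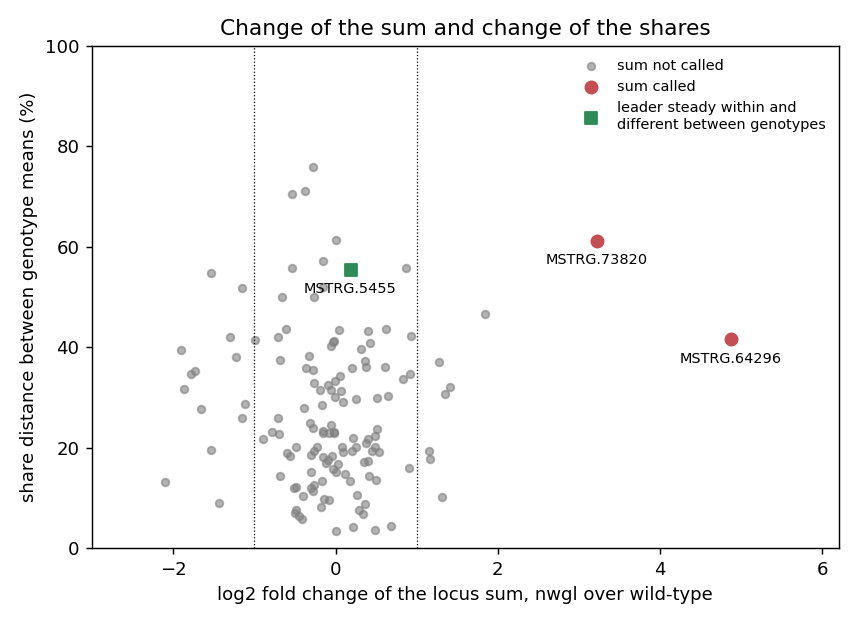
Change of the locus sum against change of the shares for the 138 loci with a sum above 0 in every library. The x axis is the log2 fold change of the sum, *nwgl* over wild-type, with dotted lines at a size of 1, and the y axis is the share distance between the mean shares of the genotypes, the percentage of the locus that would have to pass to other transcripts to make them equal. MSTRG.64296 and MSTRG.73820 lie far to the right, and most loci lie within the dotted lines at share distances between 0 and 60%.

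The main transcript of a locus was taken as the one with the highest mean FPKM in a genotype. It could be assessed in 136 loci, those with a mean sum of at least 0.1 FPKM in each genotype and a sum above 0 in every library. The main transcript differed between the genotypes in 49 of them (36.0%), against 32.6% of all loci with 2 or more transcripts. In 38 of the 49 loci the log2 fold change of the sum was under 1 in size. The same transcript led in all 6 libraries in 22 loci (16.2%), against 23.5% of all loci with 2 or more transcripts. It was 17.8% of loci with 3 transcripts and 35.8% of those with 2. A single transcript led in all 3 *nwgl* libraries in 41 loci, and in all 3 wild-type libraries in 42 loci.

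The replicates of a genotype differed from each other as much as the genotypes did. Over the 136 loci, the leading transcripts of a pair of libraries differed in 652 of 1224 comparisons between genotypes (53.3%) and in 439 of 816 comparisons within a genotype (53.8%). Over all loci with 2 or more transcripts they differed in 44.2% of the comparisons between genotypes and in 42.6% of those within a genotype. Requiring the same leader in all 3 libraries of each genotype and another leader in the other genotype left 1 of the 136 loci (0.735%), against 1.42% of all loci with 2 or more transcripts. In the other 48 loci with different main transcripts, the leader varied among the replicates of at least 1 genotype.

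That locus was MSTRG.5455, with 7 listed transcripts. Its sum was 0.752, 1.38 and 1.53 FPKM in *nwgl*, against 0.366, 2.61 and 1.01 FPKM in wild-type, and the genotypes overlapped (log2 fold change 0.18, SE 0.68, adjusted p = 0.930). MSTRG.5455.11 led in *nwgl* with 0.304, 0.976 and 0.710 FPKM, against 0, 0.309 and 0 FPKM in wild-type, so that its highest wild-type value just passed its lowest *nwgl* value. It took 40.5, 70.7 and 46.4% of the locus in *nwgl*, against 0, 11.8 and 0% in wild-type. The difference of its share had an unadjusted limma p of 0.00332 and an adjusted p of 0.227, and that of its level an adjusted p of 0.191. The locus was picked by its leading transcripts, so these p values are not independent of that choice.

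MSTRG.5455.2 led in wild-type with 26.5 to 43.9% of the locus, and it took 26.5, 3.79 and 14.0% in *nwgl*. The other 5 transcripts of MSTRG.5455 took at most 21.3% of the locus in any library, apart from MSTRG.5455.5, which had 32.8% in *nwgl* replicate 3. The sign of the small difference of the sum turned when wild-type replicate 1 was left out, to a log2 fold change of -0.45. The sums of MSTRG.5455 thus overlapped between the genotypes and its leading transcript differed, but its shares did not pass the test across all transcripts.

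**Figure D4:**
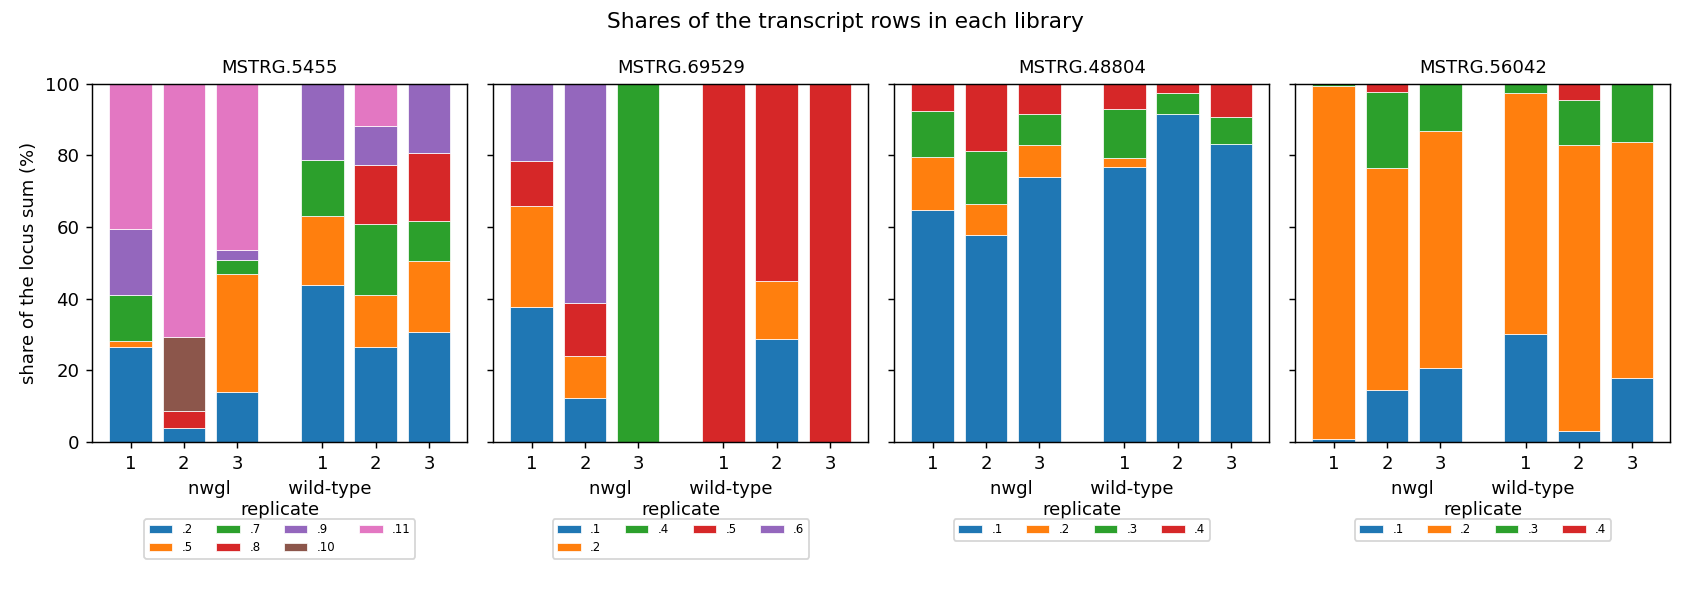
Share of each listed transcript in the locus sum, in percent, for the 3 *nwgl* libraries to the left of the 3 wild-type libraries in MSTRG.5455, MSTRG.69529, MSTRG.48804 and MSTRG.56042, with transcript numbers in the legends. Transcript 11 leads MSTRG.5455 in each *nwgl* library and transcript 2 in each wild-type library, transcript 5 takes 55.0 to 100% of MSTRG.69529 in wild-type, and transcript 2 leads MSTRG.56042 in all 6 libraries.

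Shares were also compared as a whole. The share distance of a pair of libraries was computed in the same way as that of the genotype means, so that 0% means equal shares and 100% no transcript in common. Averaged over the library pairs of a locus, it had a median of 41.2% between genotypes and 39.6% within a genotype over the 138 loci. The mean distance between genotypes exceeded that within genotypes in 57 of the 138 loci (41.3%), or 55 of the 136 assessed for a main transcript, against 42.5% of all loci with 2 or more transcripts. Every pair between genotypes exceeded every pair within a genotype in 0 of the 138 loci, against 1.63% of all such loci. In MSTRG.5455, picked by its leading transcripts, the mean distance was 62.1% between genotypes and 35.9% within a genotype. The farthest pair within a genotype, at 55.7%, nevertheless exceeded the nearest pair between genotypes, at 36.3%.

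Wild-type replicate 3 stood apart in these distances. The 5 pairs with this library had median distances of 39.7 to 46.3%, and the other 10 pairs had 33.3 to 36.8%. Without it, the leading transcripts differed in 50.2% of the comparisons between genotypes and in 53.3% of those within a genotype, and the median share distance was 35.5% between and 37.5% within. It was also the library with the fewest transcripts above 0. Without it, the main transcript differed between the genotypes in 55 of 139 loci, against 49 of 136 with all libraries.

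**Figure D5:**
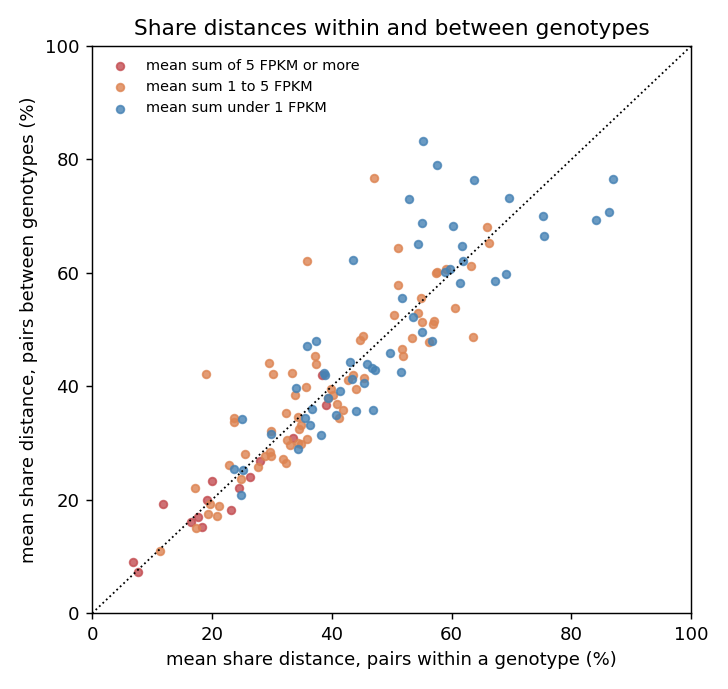
Mean share distance of the 9 library pairs between genotypes (y axis, percent) against that of the 6 pairs within a genotype (x axis, percent), with a point for each of the 138 loci, coloured by mean sum. The points scatter about the dotted line of equal distances, 57 of them above it, and the 15 loci of 5 FPKM or more lie between 6.76 and 39.0% within and between 7.22 and 42.0% between genotypes.

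The steadiness of the leader followed the level of the locus. Of 52 loci with a mean sum under 1 FPKM, 28 (53.8%) had different main transcripts in the genotypes, of 69 loci between 1 and 5 FPKM 21 (30.4%) had, and of 15 loci of 5 FPKM or more 0 had. Leaders differed between replicates of the same genotype in 67.3%, 51.4% and 17.8% of the comparisons in these classes, and between genotypes in 66.7%, 50.9% and 17.8%. The low loci thus supplied most of the changed main transcripts, and their replicates also differed most often.

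The sums spread less than their leading transcripts. A sum of parts that do not move together tends to do so by construction, so this comparison is descriptive only. Over the 136 loci, the median standard deviation within a genotype was 0.609 for the log2 sum and 0.762 for the log2 level of the leading transcript, and the leading transcript spread more than the sum in 99 loci. Among 136 loci with 2 or more tested transcripts, the transcripts of a locus differed in sign in 97, all were higher in *nwgl* in 14, and all were lower in 25. These counts have no counterpart over the other loci. The median spread of the log2 sum was 0.627 over the 157 loci and 0.848 over all 1629 lncRNA loci tested. The levels differed as well, with a median sum of 1.23 FPKM in the 157 loci and 0.113 FPKM over all 3061 loci. The latter include the loci too low to be tested, so the 2 comparisons do not cover the same loci. Per tested transcript the median spread was 0.861 in the 157 loci and 0.894 over all.

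The main transcript of the genotype means was the same in both genotypes in each of the 10 most abundant loci. MSTRG.56042, the highest, had sums of 24.5, 26.7 and 21.7 FPKM in *nwgl*, against 5.98, 84.8 and 65.9 FPKM in wild-type (log2 fold change -0.41, SE 0.87, adjusted p = 0.861). The wild-type libraries enclosed the *nwgl* libraries, with replicate 1 the lowest and replicate 2 the highest of all 6. Its transcript 2 led in every library and took 75.5 ± 20% of the locus in *nwgl* and 71.0 ± 7.75% in wild-type (SD, n = 3 each).

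MSTRG.14200, with 13 listed transcripts, combined a high level with many isoforms. Its sum was 13.5, 15.1 and 14.6 FPKM in *nwgl*, against 11, 19.9 and 24.0 FPKM in wild-type (log2 fold change -0.27, adjusted p = 0.843). MSTRG.14200.20 led in all 6 libraries, with 45.8 ± 5.69% of the locus in *nwgl* and 52.2 ± 2.40% in wild-type. Of the 10 highest loci, 5 kept a single leader in all 6 libraries, MSTRG.56042, MSTRG.14200, MSTRG.52295, MSTRG.70482 and MSTRG.32839, and the other 5 did not.

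MSTRG.42157 was led by transcript 12 in *nwgl* replicate 2 and by transcript 4 in the other 5 libraries, and MSTRG.16921 by transcript 1 in *nwgl* replicate 3 and by transcript 4 in the others. MSTRG.11478 was led by transcript 1 in *nwgl* replicates 1 and 2 and by transcript 3 in *nwgl* replicate 3 and all wild-type libraries. MSTRG.6513 was led by transcript 7 in *nwgl* replicate 3 and wild-type replicate 1 and by transcript 8 in the others. None of these 4 loci was called by sum, with limma adjusted p values of 0.673 to 0.857.

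MSTRG.16613, the fourth locus by level, had 3 different leaders among the libraries. Its sum was 18.7, 16.1 and 13.8 FPKM in *nwgl*, against 2.56, 11.3 and 9.87 FPKM in wild-type, without overlap (log2 fold change 1.27, SE 0.61, adjusted p = 0.338). MSTRG.16613.4 had 8.39, 0 and 0.432 FPKM in *nwgl* and was listed at 0 in wild-type, and MSTRG.16613.3 had 0, 0 and 8.76 FPKM in *nwgl*, against 0.0121, 0 and 0 FPKM in wild-type. Each of these transcripts was thus high in a single *nwgl* library.

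None of the 5 loci with the most transcripts was called by sum. MSTRG.4058, with 14 transcripts, had sums of 2.53, 3.95 and 2.57 FPKM in *nwgl*, against 2.44, 4.67 and 2.53 FPKM in wild-type (log2 fold change -0.05, adjusted p = 0.974). Its leader was transcript 4, 1 and 6 in *nwgl* replicates 1, 2 and 3, against transcript 4, 4 and 13 in wild-type replicates 1, 2 and 3. MSTRG.56155, also with 14 transcripts, had sums of 1.12, 1.56 and 1.67 FPKM in *nwgl*, against 0.869, 4.43 and 1.34 FPKM in wild-type (log2 fold change -0.28, adjusted p = 0.866). Its average share distance was 53.0% between genotypes and 54.4% within a genotype.

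MSTRG.66286, with 12 transcripts, had sums of 0.970, 1.39 and 1.72 FPKM in *nwgl*, against 1.71, 2.39 and 2.72 FPKM in wild-type, with a narrow overlap (log2 fold change -0.71, SE 0.50, adjusted p = 0.540). MSTRG.1361, also with 12, had 0.608, 0.623 and 1.53 FPKM in *nwgl*, against 0.475, 1.82 and 1.51 FPKM in wild-type (log2 fold change -0.36, SE 0.63, adjusted p = 0.835). Both had 3 different leaders among the 6 libraries.

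Protein-coding genes near the loci were read from the study's list of genes within 100 kb of lncRNAs. The study had called those lncRNAs differentially expressed with DESeq on these same libraries. Neither the choice of loci nor that of genes is therefore independent of the values. The list covered 13 of the 157 loci, the 5 called by sum among them and others that were not called by sum here. Of 145 neighbouring genes tested, 7 (4.83%) were called, 6 of them higher in *nwgl* and 1 lower, against 4.89% of all 24332 genes tested, 3.69% higher and 1.2% lower. The *Bol* gene IDs are not paired with names in the tables used here. Neither coordinates nor overlaps of the loci with these genes were analysed.

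*Bol036591*, near MSTRG.5278, had 77.5, 144 and 27.2 FPKM in *nwgl*, against 4.12, 8.88 and 8.90 FPKM in wild-type (log2 fold change 3.27, SE 0.62, limma adjusted p = 0.0181). It was the only called gene of 6 tested near this locus. *Bol043473*, near MSTRG.85996, had 5.43, 6.66 and 1.57 FPKM in *nwgl*, against 0.168, 0.0474 and 0.117 FPKM in wild-type (log2 fold change 4.28, SE 0.60, adjusted p = 0.00456). Its genotypes did not overlap either, and it was 1 of 15 genes tested there.

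*Bol019351*, near MSTRG.79413, went the other way from its neighbouring locus, with 1.69, 1.79 and 1.66 FPKM in *nwgl*, against 17.9, 12.1 and 4.95 FPKM in wild-type (log2 fold change -2.51, SE 0.49, adjusted p = 0.0199). It was 1 of 14 genes tested near that locus. Near MSTRG.64296, 2 of 14 genes were called, both listed at 0 in all wild-type libraries, and near MSTRG.73820 none of 13 was called.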

How the data were processed

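The authors filtered the reads of the 6 libraries, aligned them to the cabbage genome (Bolbase) with HISAT2, assembled them with StringTie 1.3.1, and kept as lncRNAs unknown transcripts of at least 200 bases with at least 2 exons, at least 0.1 FPKM and no coding potential. They deposited FPKM values from StringTie, which divides reads shared by overlapping transcripts among them by a model, so that a share is an estimate. FPKM is not scaled for composition.

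Transcripts and locus sums with a mean of at least 0.1 FPKM were fitted on log2(FPKM + 0.1) with limma 3.58.1 (lmFit, eBayes with trend) in R 4.3.3, over the whole lncRNA table, and genes likewise. This scale understates the fold change of low values. Shares were fitted on the arcsine of their square root in loci with 2 or more transcripts. Calls needed an adjusted p (Benjamini-Hochberg) under 0.05 together with a change by at least 1 on the log2 scale, or by 10 percentage points of share. An exact permutation test of 3 against 3 libraries cannot go below p = 0.1. The fits were also run on simulated data with noise drawn independently for each transcript or sum, and no result here rests on that run. No batch is given in the labels, and leaf marker genes were not checked, for want of gene names. Tables and figures were made with Python 3.11.15, pandas 2.3.3, numpy 2.4.6 and matplotlib 3.10.9.

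The members, lists, tests and naming rule were chosen with earlier results of these data known. Loci named are those called by sum, with a steady change of leader, with a called transcript or share, the 10 highest and the 5 with most transcripts, together with *Bol018504* and the neighbour gene of largest change of a named locus, limited to called genes and to 2 IDs that rose and 2 that fell, since IDs come without names. Loci named outside the rule are said to have been picked. The same-numbered libraries of the genotypes were checked for pairing. Alternatives were other pseudocounts, filters, scalings, eBayes settings, share scales, definitions of the main transcript, a replicate block and leaving out each library.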

Additional observations from a re-analysis of the deposited data

How the results depend on the processing

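The 5 locus sums were called in every setting except that MSTRG.73820 was lost without *nwgl* replicate 1 or 2, and quantile normalization and the fit without wild-type replicate 1 each added a locus lower in *nwgl*. Counts were 4 to 6 with each library left out. The 10 called transcripts fell to 2 with a pseudocount of 1, to 2 with a mean FPKM of at least 1, where only 68 transcripts were tested, and to between 2 and 6 with each library left out. The count of called shares was 0 in all settings except diffSplice, which called 2. The 49 loci with different main transcripts became 14 when a mean sum of at least 1 FPKM was required in each genotype, 10 when the leader had to exceed the next transcript by 1.5 times, and 1 when it had to lead in all 3 libraries of its genotype, but 62 by the highest median FPKM and 49 to 63 with each library left out. The log2 fold change of MSTRG.5455 turned to -0.45 without wild-type replicate 1 and lay between -0.45 and 0.82 with each library left out. The distances without wild-type replicate 3 were an alternative chosen after seeing the data.

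Same-numbered libraries showed no clear pairing. The correlations of their deviations were 0.05, 0.04 and 0.05 over locus sums, 0.01, 0.06 and 0.09 over transcripts, and -0.02, 0.11 and 0.16 over genes. Each library correlated best with its own number over sums, but this did not hold for every library over transcripts or genes. With the replicate block 5 sums, 8 transcripts and 0 shares were called. The read counts behind single values are unknown, and 313 of the 919 transcripts lie under 0.1 FPKM, so a transcript or share that was not called is not shown to be unchanged.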
